A study of Mus musculus with 6 samples.

Results

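Acetylation of lysine 9 on histone H3 (H3K9ac) was measured at 10 genes of the adherens junction and the desmosome: Epcam, Cdh1, Ctnna1, Ctnnb1, Dsg2, Dsc2, Pkp2, Pkp3, Jup and Dsp. Every interval of enriched signal that the authors' peak lists assigned to one of these symbols was taken, whatever its region class. This gave 172 of 42851 intervals (0.401%) over 6 libraries. Of the 172, 68 carried the promoter class, 48 the intron class, 21 the upstream class, 6 the exon class and 29 the intergenic class. One of them, assigned to Cdh1 in germ-free replicate 2, also named the transcript 1110028F18Rik.

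Epithelial cells were harvested from the distal part of the intestine, and all mice were C57BL/6. The 3 housing groups were conventionally housed mice, mice monoassociated with E. coli and mice kept germ-free, with 2 libraries each. Strain, tissue location and antibody were the same in all groups, and the labels gave no age, sex, E. coli strain or length of colonisation. Nothing in the labels states whether the 2 libraries of a group came from separate animals or pools, so the spread between them may be technical. Per the labels, the depth was 20 M single-end reads of 50 bp per library.

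Adherens junctions and desmosomes hold neighbouring epithelial cells together. In the adherens junction, E-cadherin (Cdh1) binds its counterpart on the next cell, and beta-catenin (Ctnnb1) and alpha-catenin (Ctnna1) tie its tail to actin. Beta-catenin also carries the Wnt signal into the nucleus, where it drives the renewal of intestinal crypts. In the desmosome, the cadherins desmoglein 2 (Dsg2) and desmocollin 2 (Dsc2) bind plakoglobin (Jup) and the plakophilins (Pkp2, Pkp3), and desmoplakin (Dsp) anchors the plaque to keratin filaments. Epcam is a surface adhesion molecule of simple epithelia that binds claudin-7, and its loss in humans causes a congenital enteropathy. H3K9ac marks the promoters of active genes and usually lies on the nucleosomes just downstream of the transcription start site.

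The lists differed widely in length, which bears on every value that follows. They held 3117 and 15352 intervals in the conventional, 1988 and 870 in the E. coli-monoassociated and 4430 and 17094 in the germ-free libraries. The lowest fold in a list lay between 3.62 and 4.28, so weaker signal was not listed, and a promoter without an interval may still carry the mark. Of 10 epithelial marker genes, 9 and 10 had a promoter interval in the conventional, 6 and 4 in the E. coli-monoassociated and 9 and 10 in the germ-free libraries. None of 10 lymphocyte and myeloid markers and none of 10 stromal, muscle and endothelial markers had one in any library. A smaller share of epithelial cells, less acetylation per cell and the shorter lists themselves cannot be told apart in such bulk libraries.

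The 250 bases before the start site are shown for Epcam, Ctnnb1, Jup and Dsp, the 4 of the 10 genes for which a promoter sequence was available. These 4 differed in base composition and in whether an interval reached into this stretch. The sequences are RefSeq's for GRCm38.p6, the assembly behind the mm10 build that the files use, and are written 5′ to 3′ on the gene's own strand. They span chr17:87635729-87635978 on the plus strand for Epcam and chr9:120933150-120933399 on the plus strand for Ctnnb1. They span chr11:100397791-100398040 on the minus strand for Jup and chr13:38151044-38151293 on the plus strand for Dsp. Capitals mark each match to the searched motifs GGGCGG (GC box), CACCTG (E-box), TTTATG (core of the caudal homeobox motif) and GGGTGTG (a Krüppel-like factor motif), on either strand.
Epcam: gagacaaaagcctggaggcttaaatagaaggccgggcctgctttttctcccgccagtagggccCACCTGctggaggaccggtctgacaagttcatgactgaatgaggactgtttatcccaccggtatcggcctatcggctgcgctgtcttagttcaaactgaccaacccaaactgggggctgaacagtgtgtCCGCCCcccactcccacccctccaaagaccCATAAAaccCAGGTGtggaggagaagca
Ctnnb1: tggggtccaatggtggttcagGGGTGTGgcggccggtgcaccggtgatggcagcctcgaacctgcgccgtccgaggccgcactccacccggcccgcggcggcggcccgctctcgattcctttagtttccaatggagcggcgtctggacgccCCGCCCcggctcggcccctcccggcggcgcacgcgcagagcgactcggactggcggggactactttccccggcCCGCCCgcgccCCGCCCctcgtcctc
Jup: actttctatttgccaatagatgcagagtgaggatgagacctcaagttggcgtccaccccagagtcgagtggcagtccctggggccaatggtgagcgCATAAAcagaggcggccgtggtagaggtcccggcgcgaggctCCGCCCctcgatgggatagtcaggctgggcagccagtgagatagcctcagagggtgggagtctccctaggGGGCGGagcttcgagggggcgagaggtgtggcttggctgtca
Dsp: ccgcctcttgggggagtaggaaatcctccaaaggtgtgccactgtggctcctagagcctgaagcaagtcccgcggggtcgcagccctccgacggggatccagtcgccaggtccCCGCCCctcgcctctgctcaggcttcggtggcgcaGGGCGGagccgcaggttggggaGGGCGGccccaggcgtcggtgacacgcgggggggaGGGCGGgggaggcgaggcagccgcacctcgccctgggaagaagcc

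The Epcam stretch held 1 GC box, 58 bases before the start site, E-boxes 187 and 19 bases before it, and the caudal core 28 bases before it. Ctnnb1 had GC boxes 99, 26 and 15 bases before its start site and the Krüppel-like motif 229 bases before it. Jup had GC boxes 112 and 42 bases and the caudal core 154 bases upstream. Dsp had 4 GC boxes, 137, 102, 80 and 45 bases upstream. Epcam had 56.4% G and C and 8 CpG pairs, Jup 62% and 13, Dsp 72.4% and 22, and Ctnnb1 74.8% and 35. The median over 32851 promoters of the same length was 52.4% with 6 CpG pairs, so all 4 lay above it. GGGCGG occurred on either strand in 32.7% of those promoters, CACCTG in 17.2%, TTTATG in 10.8% and GGGTGTG in 6.93%. TATAAA (12.4% of promoters), AACCGGTT (0.116%), CAAAGTCCA (0.384%) and ACCGGAAG (1.72%) were also searched and had no match, which says only that these letters are not in these windows. No 2 of the marked matches overlapped. A match is a description of the letters and not a binding site. Intervals reached over the printed Epcam bases in conventional replicate 2 and germ-free replicate 2, over those of Dsp in germ-free replicate 2 alone, and over those of Ctnnb1 and Jup in no library.

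A gene was called at its promoter where one of its intervals overlapped 1 kb on either side of a start site named in the lists. By this rule 7 and 10 of the 10 junction genes were called in the conventional, 5 and 5 in the E. coli-monoassociated and 8 and 10 in the germ-free libraries. Over 21900 protein-coding genes the shares called were 9.08% and 32.8% in the conventional, 4.21% and 1.87% in the E. coli-monoassociated and 11% and 29.6% in the germ-free libraries. Epcam, Cdh1 and Dsg2 were called in all 6 libraries, which held for 0.995% of protein-coding genes (218 genes). All 10 members were called in at least 1 library, against 37.0% of protein-coding genes. Conventional replicate 1 lacked Pkp2, Jup and Dsp, and germ-free replicate 1 lacked Ctnnb1 and Pkp2. E. coli replicate 1 held Epcam, Cdh1, Dsg2, Jup and Dsp, and E. coli replicate 2 held Epcam, Cdh1, Ctnnb1, Dsg2 and Dsp. Of 45 such calls, 6 rested on intervals at the lowest fold of their list: Ctnna1 and Pkp3 in conventional replicate 1, Cdh1 and Jup in E. coli replicate 1, and Ctnnb1 and Dsp in E. coli replicate 2.

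**Figure D1:**
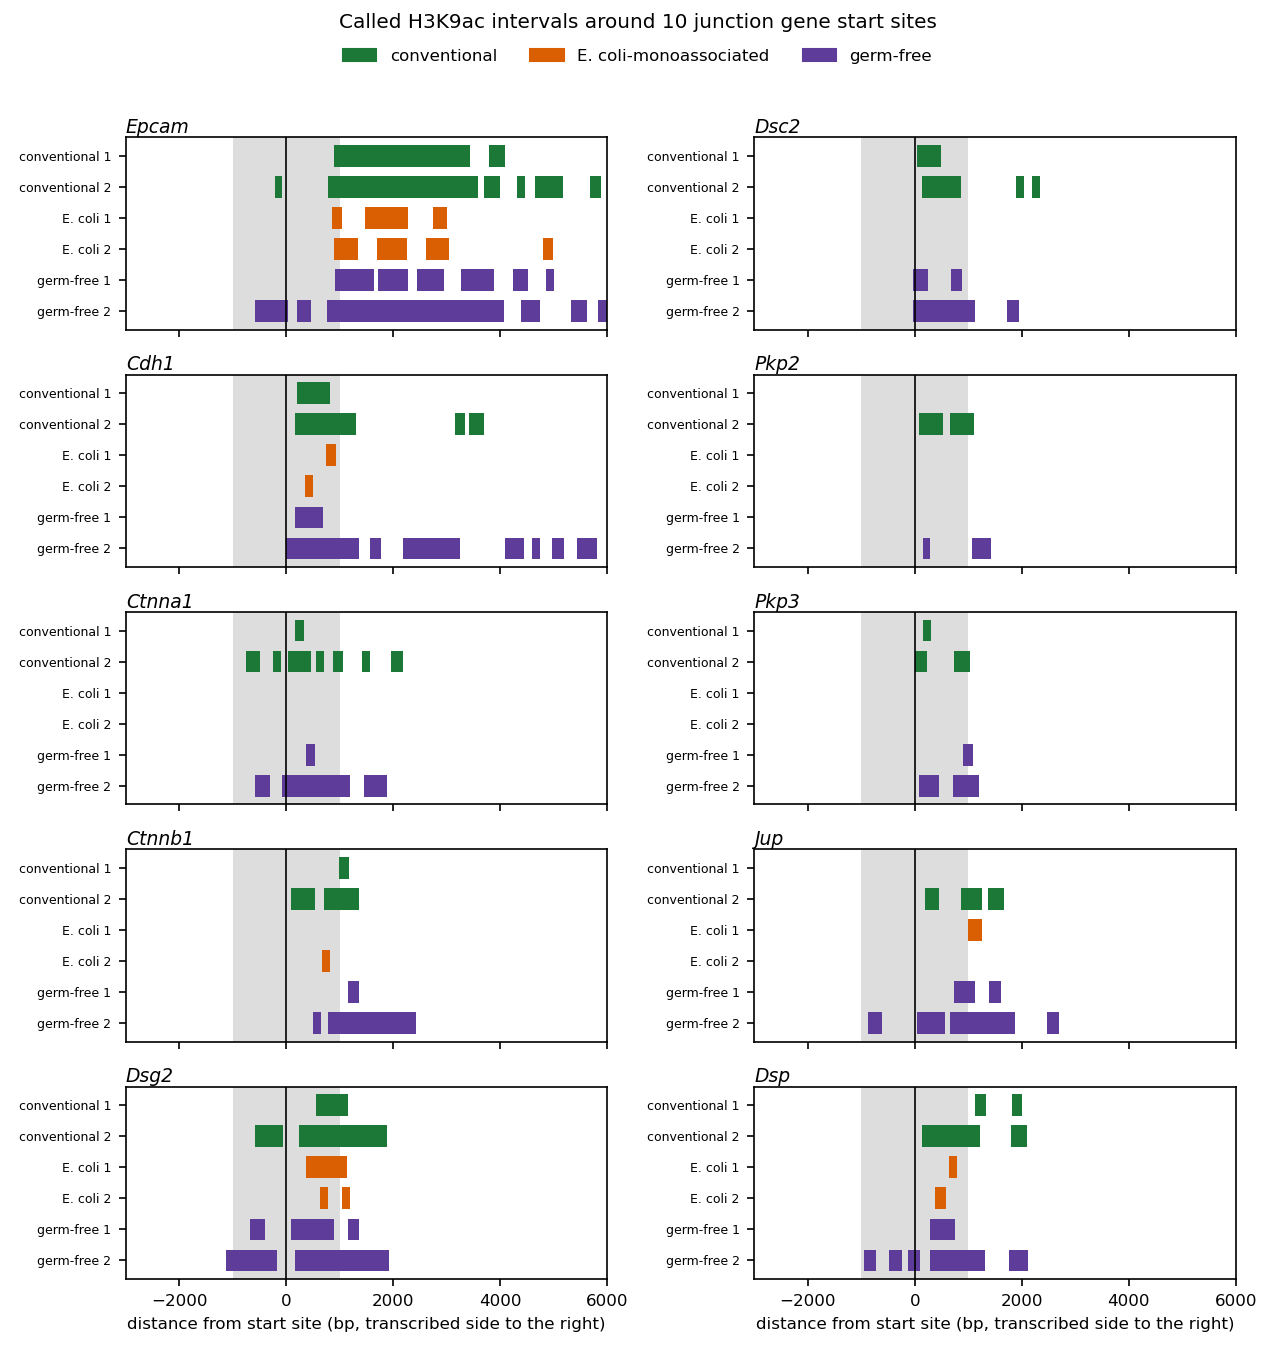
Intervals of each junction gene by library, drawn to scale by distance in bp from the start site that the authors' list names (x axis), with the promoter window shaded and more distant intervals left out. Rows are the conventional, E. coli-monoassociated and germ-free libraries from top to bottom; Epcam, Cdh1 and Dsg2 have a bar in the window in all 6 rows, while Ctnna1, Dsc2 and Pkp3 have none in the E. coli rows.

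Epcam had the highest fold of the 10 genes at its strongest promoter interval in 4 libraries. It shared the highest value with Dsg2 in germ-free replicate 1, and Dsg2 was above it in E. coli replicate 1. The fold is the authors' own value for each interval, the ratio of the pileup to background, and it serves here to rank intervals within a list and not to compare groups. Its strongest promoter interval reached 10.6-fold and 18.8-fold in the conventional libraries, which lay above 95.5% and 99.6% of the intervals in their lists. This interval reached 7.10-fold and 6.41-fold (80.9th and 61.4th percentile) in the E. coli-monoassociated and 9.23-fold and 19.6-fold (94.7th and 99.6th percentile) in libraries from germ-free mice. The pileup at the summit was 14 and 25 reads in the conventional and 11 and 8 reads in the E. coli-monoassociated libraries, and 15 reads in germ-free replicate 1. The exact 95% Poisson intervals of these counts were 7.65 to 23.5, 16.2 to 36.9, 5.49 to 19.7, 3.45 to 15.8 and 8.40 to 24.7. They cover counting error only, and the pileups are not scaled for depth. In 3 libraries a stronger interval lay farther into the gene body, in an intron. It reached 8.88-fold and 9.98-fold in the E. coli-monoassociated libraries, 1467 to 2280 and 2613 to 3038 bp downstream of the start site, and 9.81-fold in germ-free replicate 1, 2447 to 2942 bp downstream.

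The strongest Epcam promoter interval began 884 and 780 bp downstream of the start site in the conventional, 851 and 889 bp in the E. coli-monoassociated and 906 and 768 bp in the germ-free libraries. The rule for a promoter call required an overlap with the first 1 kb, so its near edge could not lie farther into the gene. Conventional replicate 2 and germ-free replicate 2 also had weaker Epcam intervals nearer the start site. In all 6 libraries the strongest promoter interval lay inside the gene, while the printed bases lie on the other side of the start site. The summit lay 1914 and 2103 bp downstream in the conventional and 934 and 1240 bp downstream in the E. coli-monoassociated libraries, and 1459 bp downstream in germ-free replicate 1. The interval was 2546 and 2810 bp long in the conventional, 191 and 447 bp in the E. coli-monoassociated and 729 and 3304 bp in the germ-free libraries, so its length varied far more than its near edge. Merged over libraries, it belonged to a region of 3329 bp at chr17:87636747-87640075 with an interval from each library, of which 870 bp were called in all 6. Epcam intervals covered 3024 and 10329 bp in the conventional, 1265 and 1599 bp in the E. coli-monoassociated and 2831 and 13881 bp in the germ-free libraries. Both E. coli values lay below all 4 others. The number of Epcam intervals was 3 and 25 in the conventional, 3 and 4 in the E. coli-monoassociated and 6 and 22 in the germ-free libraries.

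In conventional replicate 2 and germ-free replicate 2 most of that length lay far upstream of Epcam. The upstream neighbour, the calmodulin gene Calm2, is 189 kb away. More than 1 kb upstream, conventional replicate 2 had 19 intervals with a summed length of 6.185 kb, and germ-free replicate 2 had 16 with 8.862 kb. Conventional replicate 1 had 1 such interval, 8.141 to 7.978 kb upstream with 5.66-fold enrichment, and the other 3 libraries had none. Of the 19 intervals in conventional replicate 2, 15 (78.9%) overlapped one in germ-free replicate 2. Of the 16 in germ-free replicate 2, 11 (68.8%) overlapped one in conventional replicate 2. The strongest reached 10.1-fold in conventional replicate 2 and 8.24-fold in germ-free replicate 2, and the farthest lay 152.6 and 105.0 kb from the start site. A merged region at chr17:87627038-87628883 held intervals of both conventional libraries and of germ-free replicate 2. These upstream calls went with list length: both libraries that held most of them had the longest lists of their groups, and the part of list length was not tested.

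**Figure D2:**
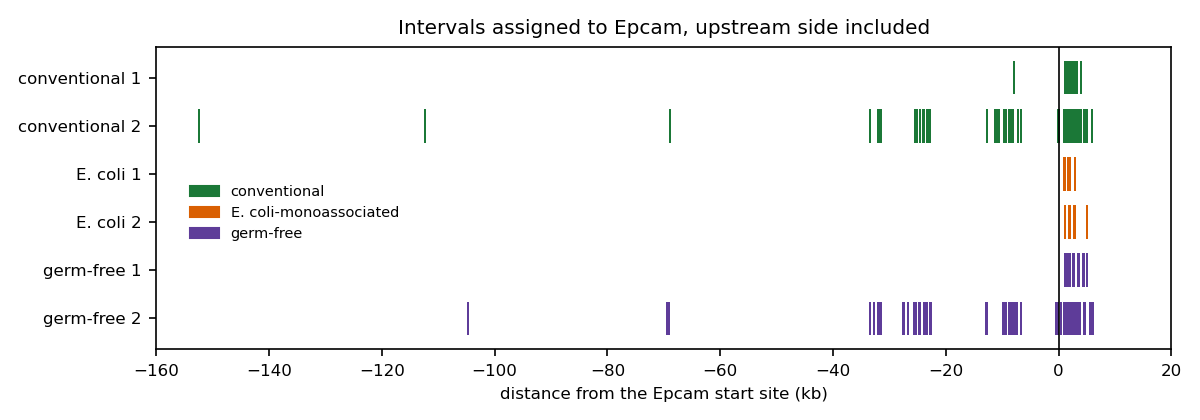
Intervals assigned to Epcam by library, by distance in kb from its start site (x axis), with rows for the conventional, E. coli-monoassociated and germ-free libraries from top to bottom; narrow intervals are drawn at a minimum width so that they can be seen. The distant upstream intervals sit in conventional replicate 2 (19) and germ-free replicate 2 (16), with 1 in conventional replicate 1.

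Among the cadherins, Cdh1 and Dsg2 carried a promoter interval in every library and Dsc2 in 4. The strongest Cdh1 interval was 6.37-fold and 10.9-fold in the conventional libraries, 4.14-fold and 4.99-fold in the E. coli-monoassociated libraries, and in germ-free replicates 1 and 2 it was 7.50-fold and 10.8-fold. The 4.14-fold interval was at the lowest fold of its list. Cdh1 intervals covered 625 and 1584 bp in the conventional, 199 and 147 bp in the E. coli-monoassociated and 510 and 5802 bp in the germ-free libraries. Germ-free replicate 2 stood apart, with 13 Cdh1 intervals against 3 or fewer in each other library, most of them in introns. Overlapping intervals of the 6 libraries merged into a region of 1353 bp at chr8:106603371-106604723, which begins at the first bases of the gene. No base of it was called in all 6, since the interval of E. coli replicate 1 did not overlap that of E. coli replicate 2 or germ-free replicate 1.

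Dsg2 is the desmoglein of simple epithelia. Its strongest promoter interval was 6.37-fold and 10.1-fold in the conventional, 9.47-fold and 4.99-fold in the E. coli-monoassociated and 9.23-fold and 15.8-fold in libraries from germ-free mice. The covered length was 602 and 2337 bp in the conventional, 769 and 294 bp in the E. coli-monoassociated and 1275 and 4306 bp in the germ-free libraries, so both E. coli values lay below both germ-free values but overlapped the conventional ones. A merged region of 1819 bp at chr18:20558214-20560032 held intervals of all 6 libraries, and 147 bp of it were called in each.

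Dsc2, the matching desmocollin, had no interval of any class in either E. coli-monoassociated library. Its promoter intervals reached 5.66-fold and 8.69-fold in the conventional libraries, and 5.19-fold and 10.8-fold in those from germ-free mice. They covered, with its other intervals, 452 and 1055 bp in the conventional and 473 and 1372 bp in the germ-free libraries. The conventional and germ-free values interleaved.

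Of the catenins, Ctnna1 had no interval in the E. coli-monoassociated libraries and Ctnnb1 had 1. Ctnna1 covered 156 and 1691 bp in the conventional and 169 and 2310 bp in the germ-free libraries, with strongest promoter intervals of 4.25-fold and 10.1-fold in the conventional libraries, against 7.50-fold and 9.50-fold in those from germ-free mice. The 4.25-fold interval was at the lowest fold of its list. Ctnnb1 covered 183 and 1267 bp in the conventional, 0 and 147 bp in the E. coli-monoassociated and 201 and 3143 bp in the germ-free libraries. Its promoter intervals were 5.66-fold and 9.41-fold in the conventional libraries, 4.28-fold in E. coli replicate 2 and 8.24-fold in germ-free replicate 2. In germ-free replicate 1 its single interval, of 5.19-fold, lay 1158 to 1358 bp downstream of the start site, just outside the promoter window. The lists name a pair of start sites for Ctnnb1, at 120933400 and 120933578 on chromosome 9. When the window was set aside, a merged Ctnnb1 region at chr9:120934188-120935829 held intervals of 5 libraries, all but E. coli replicate 1, with no base called in each.

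Jup, plakoglobin, is the catenin that serves both kinds of junction. Its strongest promoter interval was 5.79-fold in conventional replicate 2, 4.14-fold in E. coli replicate 1, and 6.35-fold and 10.1-fold in libraries from germ-free mice, with no Jup interval in conventional replicate 1 or E. coli replicate 2. The E. coli interval lay 992 to 1248 bp downstream of the start site, at the edge of the window and at the lowest fold of its list. The covered length was 0 and 963 bp in the conventional, 257 and 0 bp in the E. coli-monoassociated and 764 and 2372 bp in the germ-free libraries. The conventional values overlapped those of both other groups.

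The plakophilins, armadillo-repeat proteins of the desmosomal plaque, were the least covered members. Pkp2 had a promoter interval in conventional replicate 2 (5.79-fold) and germ-free replicate 2 (4.43-fold) alone. Elsewhere it had an intronic interval 15325 to 15470 bp downstream of its start site in E. coli replicate 1 and one at positions -7168 to -7023 bp from it in germ-free replicate 1. Its covered length was 0 and 887 bp in the conventional, 146 and 0 bp in the E. coli-monoassociated and 146 and 513 bp in the germ-free libraries, and all 3 groups overlapped or touched. Pkp3 was called at 4.25-fold and 5.79-fold in the conventional libraries, against 5.77-fold and 8.87-fold in those from germ-free mice, with no interval in either E. coli library. It covered 146 and 519 bp in the conventional and 188 and 852 bp in the germ-free libraries. The Pkp3 intervals of conventional replicate 1 and germ-free replicate 1 lay in different places and shared no base.

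Dsp, the plakin that binds keratin filaments, had an interval in all 6 libraries, and in 5 it overlapped the promoter window. In conventional replicate 1 its intervals lay 1125 to 1334 and 1816 to 2007 bp downstream of the start site, outside the window, with a fold of up to 7.78. The strongest promoter interval was 13.0-fold in conventional replicate 2, 6.51-fold and 4.28-fold in the E. coli-monoassociated and 6.93-fold and 8.24-fold in libraries from germ-free mice. Dsp covered 402 and 1689 bp in the conventional, 150 and 192 bp in the E. coli-monoassociated and 473 and 2243 bp in the germ-free libraries. Both E. coli values lay below all 4 others. A merged Dsp region of 1206 bp at chr13:38151423-38152628 held intervals of all 6 libraries, but no base was called in each: those of conventional replicate 1 and the E. coli libraries did not overlap each other.

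**Figure D3:**
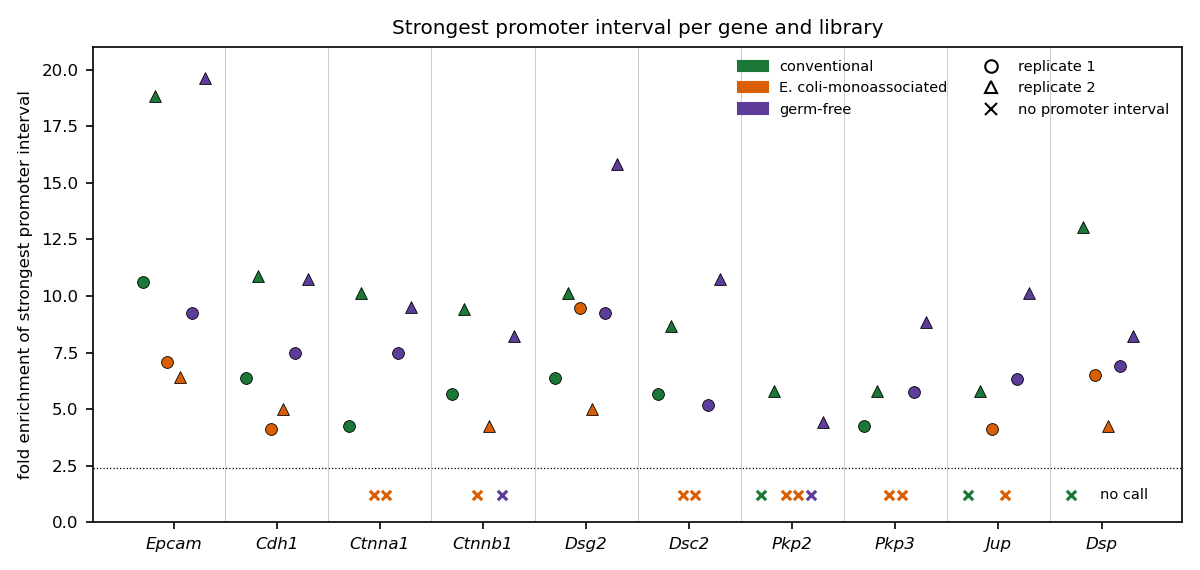
Authors' fold enrichment of the strongest promoter interval (y axis, ratio) of each junction gene (x axis), with circles for replicate 1 and triangles for replicate 2 of the conventional, E. coli-monoassociated and germ-free groups from left to right. Crosses under the dotted line mark libraries without a promoter interval and have no fold; Epcam reaches 18.8-fold and 19.6-fold in conventional replicate 2 and germ-free replicate 2.

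Set against germ-free mice, E. coli-monoassociated mice had shorter covered lengths at the junction genes. The mean covered length was lower in the E. coli-monoassociated libraries for 10 of 10 members. The same count over all genes was not made. In all, the E. coli lists held 574 and 306 kb of called sequence and the germ-free lists 1208 and 6622 kb. For 9 of the 10 members, all but Pkp2, both E. coli libraries lay below both germ-free libraries. When each list was reduced to its top 870 intervals by p-value, as many as the shortest list held, 3 members kept this pattern (Epcam, Cdh1 and Dsg2), against 2.1% of 9700 genes, and the others overlapped. In a reduced list 393 to 716 protein-coding genes had a promoter call, so many of the 9700 could not show the pattern. With all intervals the pattern held for 24.9% of those 9700 genes with an interval in any library. A gene without an interval in a germ-free library could not show it, and all 10 members had one in both germ-free libraries. The opposite pattern, both E. coli libraries above both germ-free ones, was found in 0 of 10 members and 0.0309% of those genes. Of the 8 members called at the promoter in both germ-free libraries, 3 (Ctnna1, Dsc2 and Pkp3) were called in neither E. coli library, against 65.6% of all genes so called (1461 of 2226). In the other direction, 0 of 4 members called in both E. coli libraries were missing from both germ-free libraries, against 0 of 248 genes in all. Exact two-sided permutation tests of each member's covered length gave p between 0.333 and 0.667. With 2 libraries against 2 the smallest possible p is 0.333, so no member could pass 0.05. The difference in list length moved with the groups: the E. coli lists held 1988 and 870 intervals and the germ-free lists 4430 and 17094.

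Between conventional and germ-free mice no member separated. The mean covered length was lower in the conventional libraries for 9 members and higher for Pkp2, and in 0 of 10 did the 4 libraries separate by group, against 1.65% of the 9700 genes for lower and 1.78% for higher values. The count by the mean was not made over all genes. In all, the conventional lists held 989 and 5926 kb of called sequence and the germ-free lists 1208 and 6622 kb. None of 7 members called in both conventional libraries was missing from both germ-free libraries, against 3.25% of genes, and none of 8 called in both germ-free ones was missing from both conventional ones, against 2.47%. The exact two-sided permutation p lay between 0.667 and 1. At Epcam, with 3024 and 10329 bp in conventional and 2831 and 13881 bp in germ-free libraries, the spread within each group was wider than the difference between the means.

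Against E. coli-monoassociated mice, conventional mice had longer covered lengths at all 10 members by the mean. That count was not made over all genes either. The conventional lists held 989 and 5926 kb of called sequence in all, against 574 and 306 kb in the E. coli lists. Both conventional libraries lay above both E. coli libraries for 7 of the 10 members, all but Dsg2, Pkp2 and Jup, a pattern found in 20.4% of the 9700 genes. A gene without an interval in a conventional library could not show it, and 8 and 10 members had one in conventional replicates 1 and 2. Among the top 870 intervals by p-value in each library, 1 member, Epcam, kept the pattern, against 2.69% of the 9700 genes. Many of those had no interval left in the reduced lists. The 625 bp Cdh1 interval of conventional replicate 1 was tied in p at the cut and was left out by chromosome order. The count of 1 member thus depends on how ties were broken. The opposite pattern was found in 0 of 10 members and in 0.0722% of genes. Of 7 members called in both conventional libraries, 3 were called in neither E. coli library, against 61.9% of genes (1218 of 1968), and they were again Ctnna1, Dsc2 and Pkp3. None of 4 members called in both E. coli libraries was missing from both conventional ones, as for all 248 genes. The exact two-sided permutation p lay between 0.333 and 1. Because the comparisons share the E. coli libraries, the overlap between their gene names is no separate result.

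The covered length of the junction genes was also divided by all called sequence of the same library. This relates it to list length but does not remove the part of list length. Member intervals made up 0.565% and 0.377% of called sequence in the conventional, 0.485% and 0.777% in the E. coli-monoassociated and 0.582% and 0.556% in the germ-free libraries. The means were 0.471% ± 0.133 in the conventional, 0.631% ± 0.206 in the E. coli-monoassociated and 0.569% ± 0.0187 in the germ-free libraries (SD, n = 2 each). The groups overlapped, and the E. coli group held both a value below and a value above the germ-free ones. Without Epcam the shares were 0.260% and 0.202% in the conventional, 0.265% and 0.255% in the E. coli-monoassociated and 0.348% and 0.346% in the germ-free libraries. Both germ-free libraries then lay above the other 4. Leaving out Epcam was chosen after seeing the data, and no like set of genes was set beside it.

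**Figure D4:**
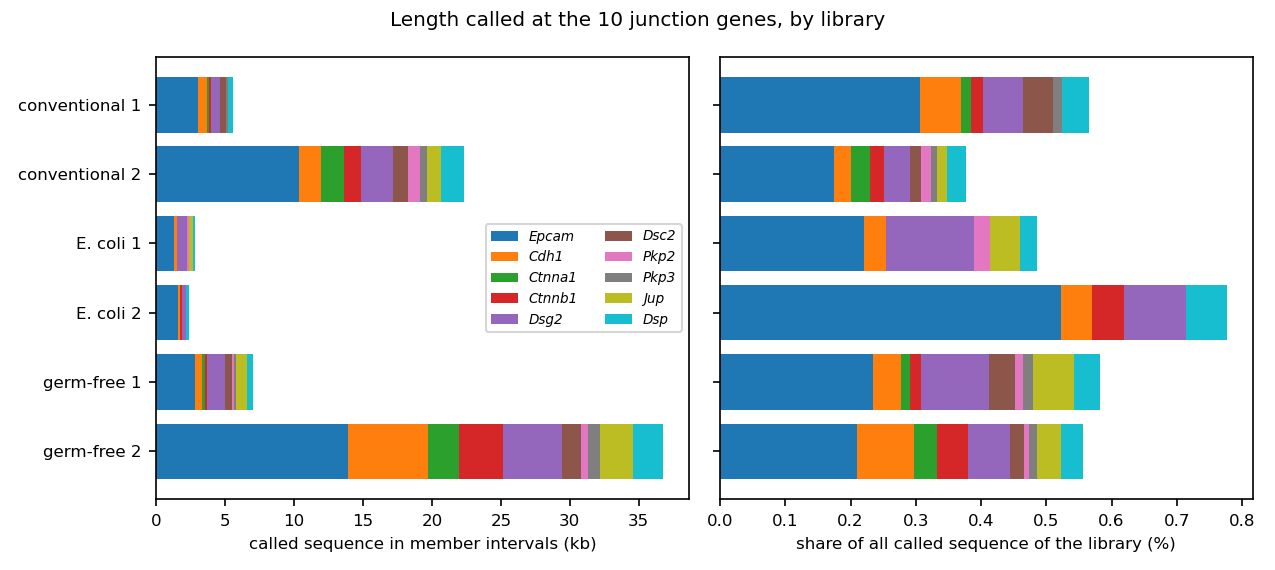
Called sequence in intervals of the 10 junction genes by library, as stacked bars coloured by gene, in kb (left) and as a percent of all called sequence of that library (right), with the conventional, E. coli-monoassociated and germ-free libraries from top to bottom. Epcam is the longest segment in every library, the left bars span 2.38 to 36.8 kb, and the right bars span 0.377% to 0.777%.

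When each list was reduced to its 870 most significant intervals, the length of the shortest list, 1 and 5 members kept a promoter call in the conventional, 3 and 5 in the E. coli-monoassociated and 5 and 5 in the germ-free libraries. The share of protein-coding genes called was then 2.54% and 3.27% in the conventional, 1.79% and 1.87% in the E. coli-monoassociated and 2.36% and 2.95% in the germ-free libraries. Epcam was the only member called in all 6 reduced lists, but ties in p at the cut were broken by chromosome and position. In conventional replicate 1 the cut fell among intervals with a -log10 p of 9.17. The Cdh1 and Dsg2 promoter intervals of that library had this value and were left out by position alone. The count of 1 member in that library, and Epcam standing alone, thus depend on the order of ties. At this equal length no member was called in both germ-free libraries and neither E. coli library.

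The intervals of these genes lay mostly past the start site. Of the 68 member intervals in the promoter window, 53 (77.9%) were wholly downstream of the start site, 10 wholly upstream and 5 spanned it. Over all protein-coding genes 17945 of 28016 such intervals (64.1%) were wholly downstream. Both counts pool repeated calls over libraries, and of the 68, 20 came from conventional replicate 2 and 21 from germ-free replicate 2. Where the lists gave a summit, which germ-free replicate 2 did not, it lay downstream in 42 of 47 member intervals (89.4%) and in 73.7% of all. Merging overlapping intervals of the 6 lists gave 82 member regions. Of these, 4 (4.88%), at Epcam, Cdh1, Dsg2 and Dsp, held intervals of all 6 libraries and 48 (58.5%) of 1. Over all 23987 merged regions the shares were 1.58% for all 6 libraries and 65.6% for a single library.

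Other genes of both junctions were looked up in the same way, in a list of 37 symbols. Of these, 8 and 16 were called in the conventional, 4 and 3 in the E. coli-monoassociated and 9 and 14 in the germ-free libraries. Actn4, an actin crosslinker, and Cldn7, the claudin that Epcam binds, were called in all 6. Ctnnd1 (p120-catenin, which stabilises cadherins at the membrane) and Nectin2 (an immunoglobulin-type adhesion molecule) were called in 5. The intestinal cadherin Cdh17 was called in both conventional and both germ-free libraries and in no E. coli library. No promoter interval was listed for 21 genes, among them the neural, placental and endothelial cadherins Cdh2, Cdh3 and Cdh5 and the desmosomal genes of stratified epithelia Dsg1a, Dsg1b, Dsg1c, Dsg3, Dsg4, Dsc1, Dsc3, Pkp1, Ppl and Evpl. Of the 8 called in both germ-free libraries, 4 were called in neither E. coli library, against 65.6% of all protein-coding genes so called. Of the 8 called in both conventional libraries, 3 were called in neither E. coli library, against 61.9% of all. None of those 8 was called in neither germ-free library, against 3.25% of all.

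Genes of structures that adjoin these junctions were looked up as well. Of 19 claudins and tight junction scaffolds, 10 and 15 were called in the conventional, 6 and 4 in the E. coli-monoassociated and 12 and 16 in the germ-free libraries. The claudins Cldn7 and Cldn23 were among those called in all 6. Of 6 keratins of simple epithelia, the filaments that desmoplakin anchors, 3 and 5 were called in the conventional, 1 and 0 in the E. coli-monoassociated and 3 and 6 in the germ-free libraries.

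**Figure D5:**
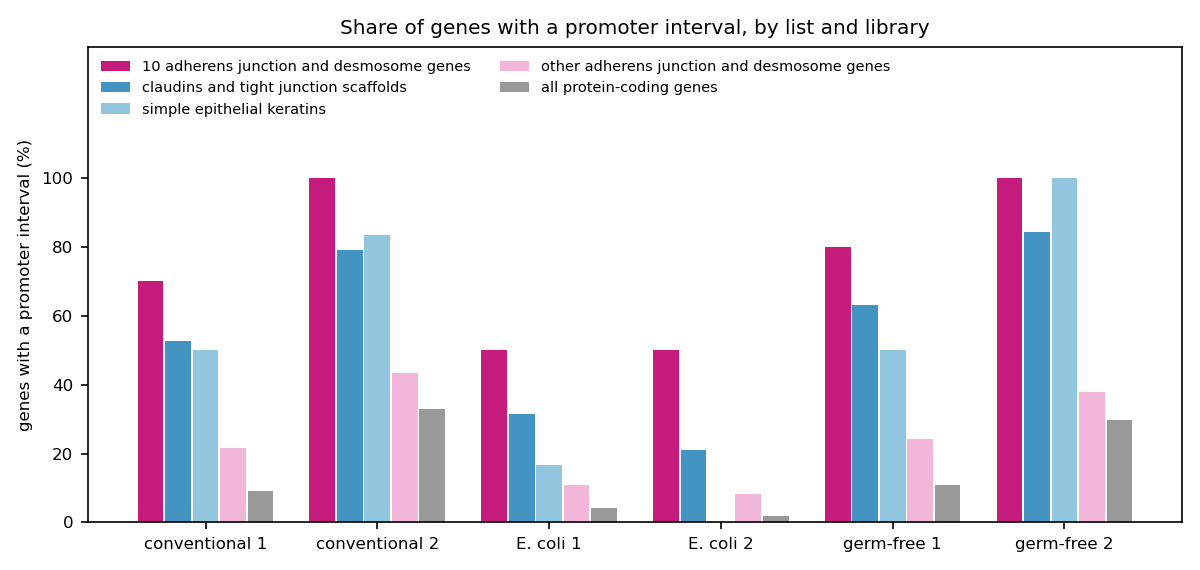
Share of genes with a promoter interval (y axis, percent) in each library, as bars for the 10 junction genes, the claudins and tight junction scaffolds, the keratins, the other genes of both junctions and all 21900 protein-coding genes. In every library the bar of the junction genes stands above that of all protein-coding genes, which is 1.87% in E. coli replicate 2 and 32.8% in conventional replicate 2.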

How the data were processed

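H3K9ac ChIP-seq was measured in 6 libraries, grouped by the sample-type label. The submitters' processing notes list MACS2 2.1.1.20160309, Bowtie 1.2.0 and the mm10 build. Calling options, and whether an input was used, are not given in the sources used. The deposited peak lists, 1 per library, give summit pileup (signal, coverage by extended reads), -log10 p-value, fold enrichment (ratio) and -log10 q-value, with region class and gene assigned by the authors. The deposited list of germ-free replicate 2 has its header moved by 1 column and holds no summit or pileup. Mitochondrial lines lack the gene cells.

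Lines repeating an interval for another summit were merged. Covered length was summed over each gene's intervals. Of 10621 gene names, 10567 matched the RefSeq table of GRCm38.p6 and 54 did not; 21900 protein-coding genes formed the background. Libraries were compared by exact two-sided permutation, written in Python 3.11.15 with matplotlib 3.10.9, SciPy 1.17.1, NumPy 2.4.6 and pandas 2.3.3, and tested on simulated data. The genes named were all 10 members, with others taken from lists by role or by likeness of rank. Members and lists were chosen with earlier results of these data known. Alternatives varied the q-value, fold, list length, window, shared intervals and libraries. Depth is known as the stated 20 M reads; Poisson intervals are exact at 95%.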

Additional observations from a re-analysis of the deposited data

How the results depend on the processing

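Within 2 against 2 libraries no p can pass 0.05, so stability refers to counts and directions. The fewer covered bp in E. coli-monoassociated than in germ-free libraries (10 of 10 members by the mean) held at 10 of 10 with each library left out, at 9 with a -log10 q or a fold of 5 or more, and at 7 in the 870 most significant intervals. Counts by the mean were not made over all genes, so whether this stability is particular to the members is not known. The number of members with calls in both germ-free libraries but no E. coli library, 3, became 5 at a fold of 5 or more, 0 in the 870 most significant intervals and 1 with at least 500 bp in the window. The number called in both conventional and neither E. coli library, 3, became 1 at a -log10 q of 5 or more, 0 in the 870 most significant intervals and 1 with 500 bp. The number called in both germ-free and neither conventional library, 0, became 1 at a -log10 q of 5 or more. Leaving out 1 library gave 0 to 1 members in both conventional and neither germ-free, 0 to 2 in both germ-free and neither conventional, and 0 to 1 in both E. coli and neither conventional. The share of called sequence was 0.0624 percentage points higher in E. coli-monoassociated than in germ-free libraries; the difference became -0.0376 at a -log10 q of at least 5, -0.0716 at a fold of 5 or more, -0.145 in the 870 most significant intervals, -0.0870 without Epcam, and -0.0836 to 0.208 with 1 library left out. In the promoter window alone the difference became 0.0461 for conventional minus germ-free and 0.0305 for conventional minus E. coli-monoassociated libraries (-0.0978 and -0.160 with all intervals). Members with a lower mean in conventional than in germ-free libraries, 9, numbered 4 in the 870 most significant intervals and 1 to 10 with 1 library left out (5 without conventional replicate 1, 1 without germ-free replicate 2). Members lower in conventional than in E. coli-monoassociated libraries, 0, numbered 1 at a -log10 q of 5 or more, 2 in the 870 most significant intervals and 0 to 2 with 1 library left out.

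Single genes changed direction as follows. In the 870 most significant intervals, E. coli minus germ-free became 73.5 bp for Ctnnb1 and 73 bp for Pkp2, where Pkp2 had the same value at a -log10 q or a fold of 5 or more. There, conventional minus germ-free became 303.5 bp for Epcam, 132.5 bp for Ctnna1 and 403 bp for Dsp, and conventional minus E. coli became -73.5 bp for Ctnnb1 and -73 bp for Pkp2 (also at a -log10 q of 5 or more). In the promoter window alone Epcam became 284.5 bp, conventional minus germ-free. With 1 library left out, conventional minus germ-free ranged from -7204.5 to 3845.5 bp for Epcam, -4697.5 to 594.5 for Cdh1, -1386.5 to 754.5 for Ctnna1, -2418 to 524 for Ctnnb1, -2836.5 to 194.5 for Dsg2, -618.5 to 280.5 for Dsc2, -329.5 to 557.5 for Pkp2, -519.5 to 144.5 for Pkp3 and -1197.5 to 572.5 for Dsp, and conventional minus E. coli from -73 to 814 bp for Pkp2 and -128.5 to 834.5 bp for Jup. The cause was not tested. Between libraries of the same number, deviations from the group means correlated weakly over 9700 genes. The values were 0.0935 for E. coli and germ-free, 0.0898 for conventional and germ-free, and 0.0993 for conventional and E. coli libraries. Replicate 2 had the longer list in the conventional and germ-free groups and replicate 1 in the E. coli group. A batch shared by libraries of the same number was not tested. For E. coli minus germ-free the size of the difference rested on germ-free replicate 2: at Epcam it was -6924 bp with all libraries, -1399 bp without germ-free replicate 2, -12449 bp without germ-free replicate 1 and -1245 bp in the 870 most significant intervals. Over the 10 members it was -1399 to -73 bp without germ-free replicate 2. A replicate block leaves each difference as it is by construction (Epcam -6924 bp), and 0 of 30 tests passed 0.05 (exact permutation p 0.5 to 1), and with the numbers crossed 0 of 20. The nuclear-only, crossed and Epcam-free alternatives were chosen after seeing the data.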

Other observations

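Genes whose promoter intervals ranked most like those of a junction gene were found among the 217 other genes called in all 6 libraries, by the mean absolute difference in rank percentile over the 6 libraries. For Epcam the nearest were Tlk2 (0.788 percentile points) and Flcn (1.29), whose intervals are shared with another gene, and then Klf5 (1.44). For Cdh1 they were Usp47 (3.94), Arcn1 (4.75) and Hnrnpul1 (5.16). For Dsg2 they were Polr2m (1.27), Cldn23 (4.30), a claudin, and Plac8 (5.04). Members not called in all libraries were set beside the genes called in exactly the same libraries. Ctnna1, Dsc2 and Pkp3 shared their pattern, called in all libraries but the E. coli-monoassociated ones, with 584 genes. Pkp2 shared its pattern with 2652 genes, Jup with 116, Ctnnb1 with 28 and Dsp with 11.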
